A study of Mus musculus with 8 samples.

Results

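Pre-CD8 DCs were set against Zeb2low common dendritic cell progenitors (CDPs) to describe what differs between a progenitor fraction and the committed precursors of one kind of dendritic cell (DC). The comparison rests on 5 of the 8 arrays of the study, 2 of pre-CD8 DCs and 3 of Zeb2low CDPs, which were chosen by their titles alone. The other 3 arrays hold Zeb2hi CDPs and are used here for the estimate of spread and as levels for reference. All 3 groups, the progenitor controls included, are mouse bone marrow cells heterozygous for a Zeb2-GFP fusion reporter, so no array comes from a mouse without the reporter. The labels give neither age nor strain and do not say by which surface proteins the cells were gated. They also do not say whether the arrays of a group stand for separate mice, so the p-values cover only how far these particular samples scatter, and that scatter may be technical. Cells were sorted into medium that held serum and Flt3 ligand conditioned medium, and small amounts of RNA were amplified by a whole-transcriptome kit before hybridisation to Affymetrix arrays.

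CDPs are marrow cells that can still become plasmacytoid DCs (pDCs) or either kind of classical DC. Type 1 classical DCs (cDC1s, the CD8a+ DCs of the mouse spleen) take up dead cells and present their antigens to CD8 T cells, and they depend on the transcription factors Irf8, Batf3, Id2 and Nfil3. Pre-CD8 DCs are their committed marrow precursors. Zeb2 encodes a repressor that opposes the cDC1 fate, and the reporter follows its level. DC precursors divide in the marrow, gain MHC class II molecules and lose features of early progenitors as they mature.

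In pre-CD8 DCs 45 genes were higher and 29 were lower than in Zeb2low CDPs, out of 13356 genes tested (limma, adjusted p under 0.05). These are 0.337% and 0.217% of the genes, or 0.554% in all, and 60.8% of the calls were increases. When each array was centred on its own median, the calls were 60 higher and 23 lower, so that 72.3% were increases. All 45 increases and 28 of the 29 decreases were at least 2-fold, and 21 increases and 6 decreases were at least 4-fold. The arrays of the groups did not overlap for any of the 74 called genes. Over all genes the pre-CD8 DC arrays lay wholly above the Zeb2low arrays for 12.4% and wholly below them for 15.4%. The median log2 difference of all genes was -0.03. In the plot of level against difference the increases reach further than the decreases, and H2-Eb1 and Ccnd2 stand apart from genes of like signal.

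**Figure D1:**
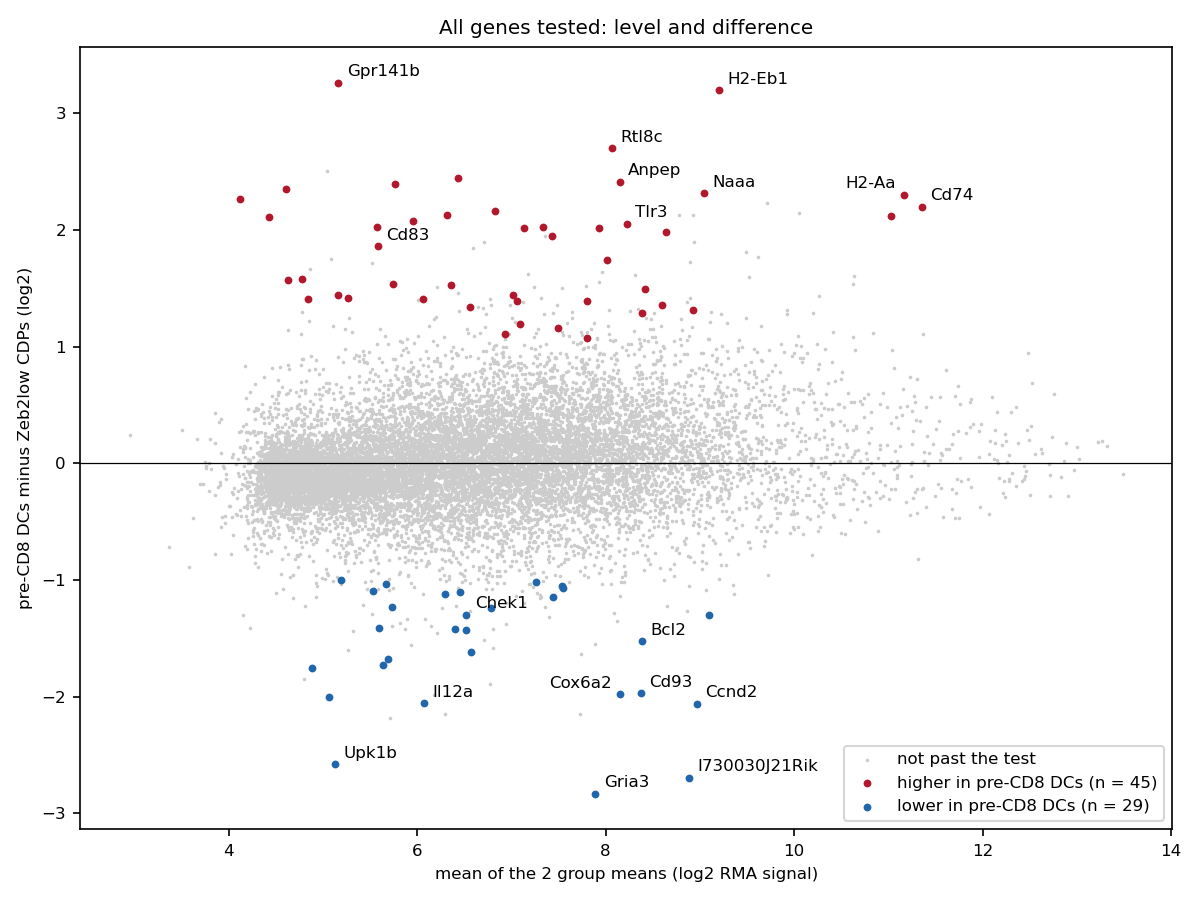
Each point is 1 of 13356 genes, with the mean of the group means on the x axis (log2 RMA signal) and the log2 difference, pre-CD8 DCs minus Zeb2low CDPs, on the y axis. The 45 red points are genes called higher in pre-CD8 DCs and the 29 blue points are genes called lower.

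The median log2 signal of the 5 arrays lay between 4.97 and 5.14. The pre-CD8 DC arrays were less alike (r = 0.937 across genes) than some pairs across the groups, such as pre-CD8 DC array 2 and Zeb2low array 3 (r = 0.966) or pre-CD8 DC array 1 and Zeb2low array 2 (r = 0.958). Genes of mature neutrophils differed most between arrays of the same group. The mean log2 signal of 22 such genes was 11.24 and 8.96 in pre-CD8 DC arrays 1 and 2, and 8.79, 10.74 and 9.51 in Zeb2low arrays 1, 2 and 3. Their summed signal ranged from 34550 to 77600 in pre-CD8 DCs and from 27350 to 61350 in Zeb2low CDPs, so the groups overlapped, and none of the 22 was called. S100a8, a calcium-binding protein abundant in neutrophils, stood at 13.12 and 12.96 against 12.91, 13.13 and 12.99. The lysozyme gene Lyz2 stood at 12.56 and 10.23 against 9.16, 11.39 and 10.28. None of the 22 genes was below the 40th percentile of all 5 arrays, and the part of such RNA in the differences that follow was not tested. Each list described is also given without pre-CD8 DC array 1 and Zeb2low array 1, the highest and the lowest of these arrays for the neutrophil genes. The median difference of the neutrophil list itself was 0.54 with all arrays and -0.89 without those 2.

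The call held without any single array for 16 of the 74 genes. They were Anpep, Ccnd2, Cd93, Ciita, Cxcr3, F630111L10Rik, Gm11545, H2-Eb1, Hepacam2, Klrb1b, Naaa, Pik3cb, Rab30, Slamf8, Tlr3 and Upk1b. The other 58 lost it without at least 1 array, though no called gene changed direction under any setting tried. Where a pre-CD8 DC array was left out, the lone array of that group was assumed to vary like the other groups. The scatter between the pre-CD8 DC arrays does not enter such fits.

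The 4 genes given as markers of the comparison were chosen with these results known, so their values are a description. H2-Eb1, the beta chain of the class II molecule I-E, had log2 signals of 10.87 and 10.73 in pre-CD8 DCs and of 7.66, 7.47 and 7.68 in Zeb2low CDPs. Both pre-CD8 DC arrays lay about 3 log2 units above every Zeb2low array, and the fitted difference was 3.20 ± 0.22 (SE), a 9.17-fold higher signal (adjusted p = 0.00134). Anpep encodes the aminopeptidase CD13 of myeloid cells, and its signals were 9.58 and 9.13 against 6.95, 6.77 and 7.10. Its groups were well apart, by 2.42 ± 0.18 (adjusted p = 0.00134). Naaa, an acid amidase of lysosomes that is high in cDC1s, stood at 10.43 and 9.99 against 7.78, 7.79 and 8.09, a difference of 2.32 ± 0.21 (adjusted p = 0.00296). Ccnd2, which encodes the G1 cyclin D2, went the other way, with 7.82 and 8.07 against 9.94, 10.10 and 9.97. Its signal was 4.16-fold lower in pre-CD8 DCs (-2.06 ± 0.17, adjusted p = 0.00267). Zeb2hi CDPs had mean signals of 5.24 for H2-Eb1, 4.31 for Anpep, 6.04 for Naaa and 10.06 for Ccnd2. The first 3 genes were thus lowest in Zeb2hi CDPs, whereas Ccnd2 stood level in both CDP fractions.

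**Figure D2:**
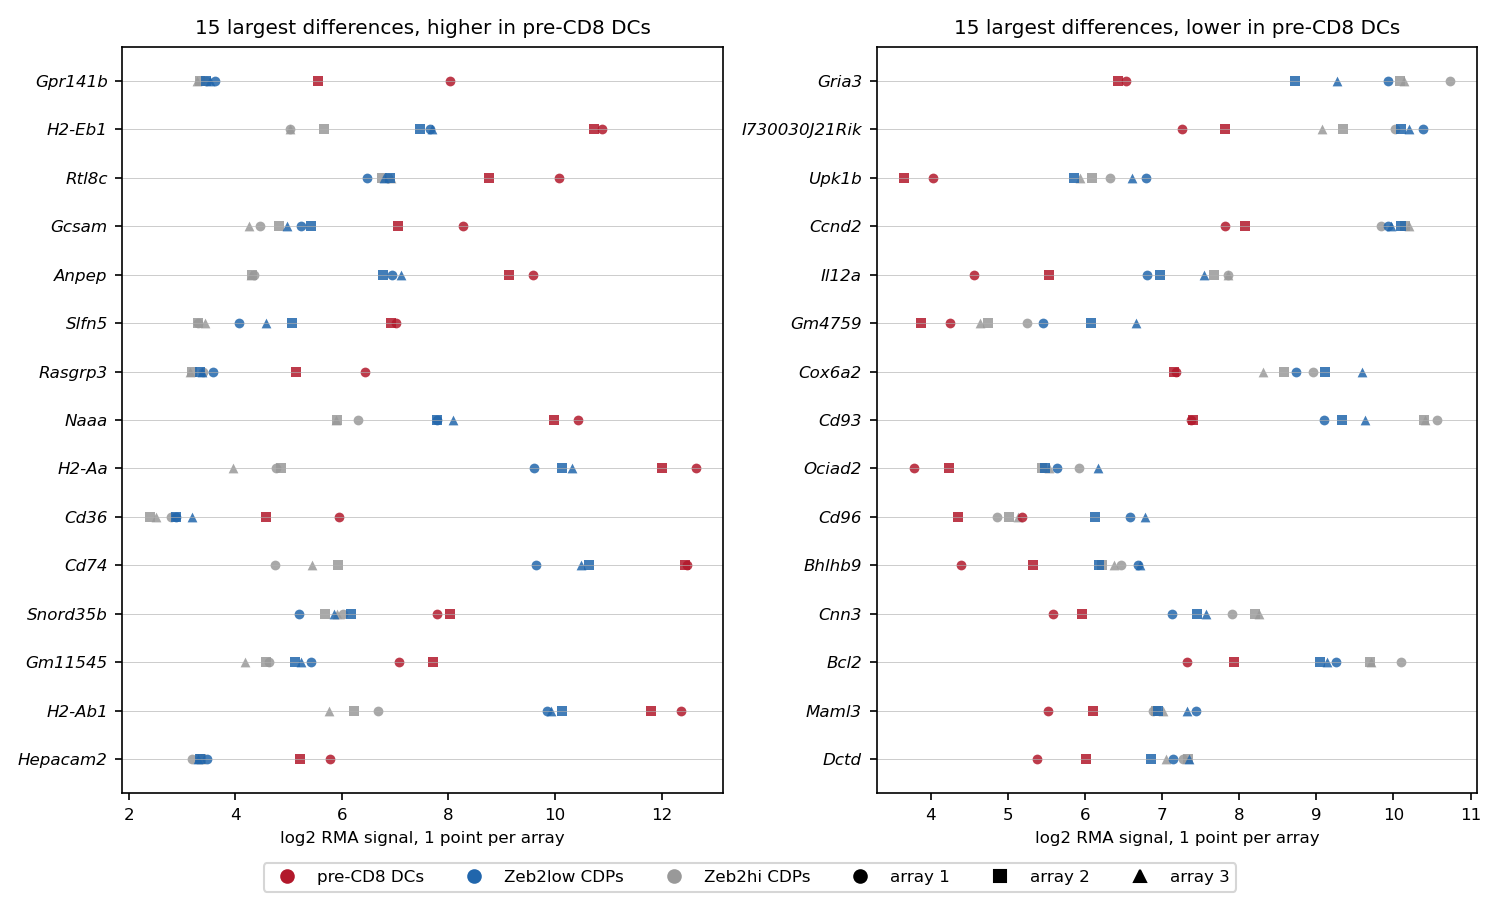
Log2 RMA signals of the 15 genes with the largest called increases (left) and decreases (right), 1 point per array, with red for pre-CD8 DCs, blue for Zeb2low CDPs and grey for Zeb2hi CDPs. Every red point lies outside the range of the blue points of its gene, and pre-CD8 DC array 1 (circle) lies well above array 2 (square) for Gpr141b, Rtl8c, Gcsam, Rasgrp3 and Cd36.

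Genes of the MHC class II pathway were higher in pre-CD8 DCs. Class II molecules carry peptides from the endosome to the surface for CD4 T cells, the invariant chain Cd74 guides them there, and the coactivator Ciita drives all of their genes together with the RFX and NF-Y complexes. Of 15 measured genes of the pathway 6 were called higher and none lower, all 15 differences were positive, and their median was 1.05. The arrays lay wholly above those of Zeb2low CDPs for 12 of the 15, beside 12.4% of all genes. H2-Eb2, among these 12, passed the filter on low signal only through the pre-CD8 DC arrays, so it had to differ. The other 14 genes held the 6 calls, and all 14 differences were positive, with a median of 1.165. H2-Ob, H2-Ab1, H2-Aa and H2-Eb1, which follow each other on chromosome 17 in the RefSeq gene order, were all among the 6. Their promoters in the RefSeq table (assembly GRCm38.p6, 250 bases before to 50 after the start) are shown for the 3 of these genes that the table holds, since all 3 carry the paired letters of the class II promoter. The capitals mark the core of the X box, GCAAC, and the Y box, TGATTGG, to which RFX and NF-Y bind.
H2-Eb1, chr17:34305617-34305916, plus strand: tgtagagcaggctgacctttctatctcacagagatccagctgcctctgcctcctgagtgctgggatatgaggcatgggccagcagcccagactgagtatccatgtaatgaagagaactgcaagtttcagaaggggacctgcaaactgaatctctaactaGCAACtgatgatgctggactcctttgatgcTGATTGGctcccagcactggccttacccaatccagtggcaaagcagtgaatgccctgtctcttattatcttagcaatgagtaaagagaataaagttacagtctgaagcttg
H2-Ob, chr17:34238655-34238954, plus strand: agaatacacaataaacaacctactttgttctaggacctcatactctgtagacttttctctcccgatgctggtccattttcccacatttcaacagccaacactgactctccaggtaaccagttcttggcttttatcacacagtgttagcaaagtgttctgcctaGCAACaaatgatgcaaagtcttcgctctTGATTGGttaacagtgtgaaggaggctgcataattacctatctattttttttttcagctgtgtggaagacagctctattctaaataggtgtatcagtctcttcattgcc
H2-Aa, chr17:34287774-34288073, minus strand: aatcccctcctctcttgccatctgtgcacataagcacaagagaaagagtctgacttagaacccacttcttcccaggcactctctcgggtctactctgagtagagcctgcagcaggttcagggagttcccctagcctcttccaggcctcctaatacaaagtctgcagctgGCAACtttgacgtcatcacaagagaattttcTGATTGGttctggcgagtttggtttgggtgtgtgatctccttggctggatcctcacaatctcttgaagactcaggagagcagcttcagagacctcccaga
The boxes lay 25, 23 and 26 bases apart. The pair at a spacing of 15 to 40 bases, in either orientation, was found in 0.433% of the 10625 tested genes with a promoter (0.289% of all 27025 promoters of the table), in 5 of the 13 class II pathway genes with a promoter (H2-Aa, H2-Eb1, H2-Eb2, H2-Oa and H2-Ob) and in 3 of the 33 called increases with one. Letters and spacing were chosen after the sequences were seen, and a match is a description of the sequence.

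H2-Aa and H2-Ab1 encode the alpha and beta chains of I-A. H2-Aa stood at 12.64 and 12.01 in pre-CD8 DCs against 9.61, 10.13 and 10.31 in Zeb2low CDPs, an increase of 2.31 ± 0.33 (adjusted p = 0.0266). H2-Ab1 stood at 12.37 and 11.81 against 9.85, 10.13 and 9.92, an increase of 2.12 ± 0.28 (adjusted p = 0.016). Cd74 had nearly the same signal on both pre-CD8 DC arrays (12.47 and 12.44), against 9.63, 10.64 and 10.49, and was higher by 2.20 ± 0.38 (adjusted p = 0.0473). No array of one group reached into the other for these genes, and the Zeb2low arrays were already far above the Zeb2hi means of 4.52, 6.22 and 5.38. Ciita was the tightest of the 6, with 8.30 and 8.40 against 6.32, 6.26 and 6.41, and rose by 2.02 ± 0.19 (adjusted p = 0.00337). H2-Ob, a chain of the H2-O modifier that restrains peptide loading, rose by 1.95 ± 0.28 (adjusted p = 0.0266), from 6.47, 6.83 and 6.07 to 8.80 and 8.01.

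Other genes of the pathway were not called. Values are given for those named in this paragraph, which were chosen after they were seen. H2-DMa, a chain of the loading enzyme H2-DM, differed by 1.28 ± 0.45 (adjusted p = 0.281) and Ctss, the protease that trims the invariant chain, by 1.05 ± 0.24 (adjusted p = 0.115). H2-Oa, the partner of H2-Ob, differed by 0.86 ± 0.31 (adjusted p = 0.296), the thiol reductase Ifi30 by 0.76 ± 0.26 (adjusted p = 0.276) and Marchf1, which removes class II molecules from the surface, by 0.61 ± 0.17 (adjusted p = 0.196). For each of these 5 genes both pre-CD8 DC arrays were above all Zeb2low arrays. The RFX subunit genes overlapped between the groups, with differences of 0.30 ± 0.21 for Rfx5, 0.13 ± 0.19 for Rfxap and 0.17 ± 0.19 for Rfxank (adjusted p = 0.576, 0.792 and 0.738). Ciita was thus called while the genes of the complex it works with were not, and no test of that difference was made.

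H2-Eb1 and Ciita kept their calls without any 1 array. H2-Aa lost its call without pre-CD8 DC array 1 (adjusted p = 0.176), Zeb2low array 1 (0.0521), 2 (0.0602) or 3 (0.08) and Zeb2hi array 2 (0.0541). H2-Ab1 lost it without pre-CD8 DC array 1 (0.123), Zeb2low array 3 (0.0824) and Zeb2hi array 2 (0.052). H2-Ob lost it without pre-CD8 DC array 1 (0.16), Zeb2low array 1 (0.059) or 3 (0.1), and each Zeb2hi array (0.0516, 0.0657 and 0.0606). For Cd74 every array but Zeb2hi array 1 was needed, with the highest adjusted p of 0.242 without pre-CD8 DC array 1. Without both arrays numbered 1 the pathway had 2 calls and a median of 0.79, and 14 of its 15 differences were positive.

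Genes linked to the cDC1 identity were the other list with many increases. Of 26 measured genes 7 were called higher and none lower, 23 of the differences were positive, and the median was 1.05. The arrays lay wholly above those of Zeb2low CDPs for 17 genes and wholly below them for 1, beside 12.4% and 15.4% of all genes. The 7 were Naaa, Tlr3, Hepacam2, Gpr141b, Gcsam, Cd36 and Rab7b. Of the 26 genes 7 passed the filter on low signal only through the pre-CD8 DC arrays, with fewer than 2 of the CDP arrays above the 40th percentile, and such genes had to differ. They include the called genes Gpr141b, Hepacam2 and Cd36, and also Xcr1 and Snx22, and all of these are among the 17. The other 19 genes held 4 calls and a median of 0.94, with 16 positive differences. The list was written with earlier results of these data known.

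Tlr3, the endosomal receptor for double-stranded RNA that marks cDC1s, stood at 9.19 and 9.31 in pre-CD8 DCs and at 7.30, 7.22 and 7.07 in Zeb2low CDPs. The groups were apart by many times their spread, and the increase was 2.06 ± 0.15 (adjusted p = 0.00134), with a Zeb2hi mean of only 3.98. Hepacam2, an immunoglobulin-like membrane protein, stood at 5.77 and 5.21 against 3.48, 3.34 and 3.30. It rose by 2.11 ± 0.19 (adjusted p = 0.00296) from a level below the 40th percentile of every Zeb2low array. Gpr141b, an orphan G protein-coupled receptor, had the largest difference of all genes tested, 3.27 ± 0.56 (adjusted p = 0.0478), with 8.03 and 5.56 against 3.62, 3.44 and 3.53. Both pre-CD8 DC arrays were above the range of Zeb2low CDPs, but they differed from each other by over 2 log2 units. Gcsam, a signalling protein of germinal centre B cells, stood at 8.27 and 7.05 against 5.24, 5.43 and 4.98 (2.44 ± 0.34, adjusted p = 0.0219). Cd36, a scavenger receptor that binds dead cells and lipids, stood at 5.95 and 4.57 against 2.89, 2.88 and 3.19 (2.27 ± 0.35, adjusted p = 0.0334). Rab7b, a GTPase of the late endosome, had the smallest increase of the 7, 1.16 ± 0.17 (adjusted p = 0.0269). Gpr141b, Hepacam2 and Cd36 were among 7 called genes that were above the 40th percentile on the pre-CD8 DC arrays alone, the others being Rasgrp3, Rab30, Fgd6 and Prss30. RMA, the summary of probe signals used here, gives no detection call and understates differences of genes this near the floor. Spread was also small there, with SDs for Gpr141b of 0.087 in Zeb2low and 0.094 in Zeb2hi CDPs against 1.748 in pre-CD8 DCs. For Cd36 they were 0.174, 0.208 and 0.977, and for Rasgrp3 0.127, 0.132 and 0.917. The fit pools the spread of the 3 groups, so these standard errors and adjusted p may be too small for the scatter of the pre-CD8 DC arrays.

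Several genes by which cDC1s are usually recognised were not called. They are named after their values were seen. Clec9a, a receptor for the actin of dead cells, stood at 10.00 and 9.77 against 8.46, 7.55 and 7.95. Its groups did not overlap, and its difference of 1.90 ± 0.33 missed the threshold narrowly (adjusted p = 0.0517). The chemokine receptor gene Xcr1 stood at 7.57 on pre-CD8 DC array 1 and at 5.03 on array 2, against 4.09, 3.80 and 3.49, a difference of 2.51 ± 0.58 (adjusted p = 0.116). Cadm1, an adhesion molecule of cDC1s, was high on array 1 alone, at 6.73 against 4.91 on array 2, and Zeb2low CDPs lay between 4.75 and 4.99. Cd8a was likewise higher on array 1 (6.61) than on array 2 (5.44), and the Zeb2low arrays lay between 5.16 and 5.57. The lysosomal thioesterase gene Ppt1 (1.60 ± 0.28, adjusted p = 0.0501), Btla (1.41 ± 0.29, adjusted p = 0.0876), Wdfy4, which is needed for cross-presentation (1.02 ± 0.21, adjusted p = 0.0898), and Ifi205 (0.94 ± 0.19, adjusted p = 0.0873) were above all Zeb2low arrays on both pre-CD8 DC arrays. The membrane glycoprotein gene Cd24a was at 11.75 and 11.81 against 11.85, 11.72 and 11.62, a difference of 0.05 ± 0.18 (adjusted p = 0.938) that turned to -0.05 after quantile normalization. The cells labelled pre-CD8 DCs thus carried raised cDC1 genes on both arrays, but Cadm1 and Cd8a were raised on array 1 alone.

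Naaa, Tlr3 and Hepacam2 kept their calls without any 1 array. Gpr141b lost its call without any one of the 6 CDP arrays (adjusted p from 0.0881 to 0.167). With pre-CD8 DC array 1 or 2 left out, the gap between these 2 arrays drops out of the spread, so those fits do not test it. Gcsam was lost without pre-CD8 DC array 1 (0.0652), any Zeb2low array (0.0521, 0.0568 and 0.104) or Zeb2hi array 2 (0.052). Cd36 was lost without every array but pre-CD8 DC array 2 (0.0585 to 0.111), and Rab7b without every array but Zeb2hi array 1 (0.0511 to 0.169). The list had a median of 0.84 without both arrays numbered 1 and of 1.26 without pre-CD8 DC array 2, each with 1 pre-CD8 DC array left. In bulk samples a lower share of positive cells and less RNA per cell cannot be told apart.

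**Figure D3:**
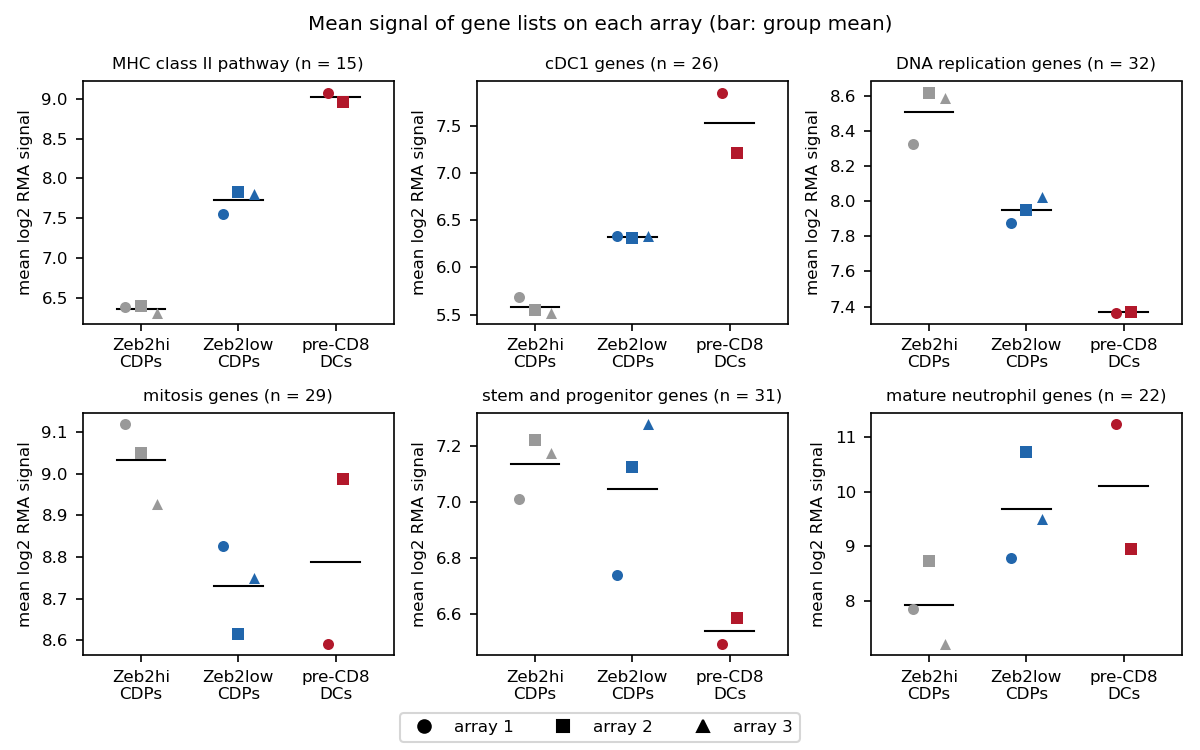
Mean log2 RMA signal of 6 gene lists on each array, with a bar at each group's mean and the marker showing the array number. Both pre-CD8 DC arrays lie above all Zeb2low arrays for the MHC class II and cDC1 lists and below them for the DNA replication and stem and progenitor lists, while the mitosis and mature neutrophil lists overlap.

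The transcription factors of the DC lineage did not pass the test. Of 35 measured genes none was called, and the median difference was 0.24. The arrays lay wholly above for 14 and wholly below for 3, beside 12.4% and 15.4% of all genes. At an unadjusted p under 0.05 there were 7 higher and 2 lower, where 6.23% of all genes were higher and 6.96% lower. The median was 0.15 without Zeb2low array 1 and 0.17 without both arrays numbered 1. Zeb2 itself had signals of 6.93 and 6.53 in pre-CD8 DCs and of 7.49, 7.69 and 7.86 in Zeb2low CDPs. Both pre-CD8 DC arrays were lower, by 0.95 on average, with a 95% interval from -1.40 to -0.50 (adjusted p = 0.0899). Batf3 stood at 8.18 and 8.94 against 7.72, 7.61 and 7.55, above in both arrays, with an interval from 0.41 to 1.45 (adjusted p = 0.137). Nfil3, which acts upstream of Id2 and Zeb2 in the choice of the cDC1 fate, was at 8.15 and 7.92 against 8.95, 8.75 and 8.88, below in both, with an interval from -1.34 to -0.31 (adjusted p = 0.175).

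Id2 was high in both groups, at 10.18 and 10.80 against 10.20, 9.98 and 10.04, and its interval ran from -0.29 to 1.13 (adjusted p = 0.6). Irf8, the factor that cDC1s need from progenitor to mature cell, was at 10.64 and 10.09 against 9.40, 9.86 and 9.92 (interval -0.06 to 1.34, adjusted p = 0.412). Zbtb46, which marks classical DCs, had an interval from 0.22 to 0.95 (adjusted p = 0.175), and Tcf4, the factor of pDCs, one from -0.97 to 0.12 (adjusted p = 0.488). The intervals of these 4 genes exclude a change of more than 1.34 log2 units either way, but not smaller ones. Bcl6, a repressor needed by cDC1s and named here after its value was seen, had the largest difference of the list, with 9.75 and 9.45 against 7.76, 8.61 and 8.19 (1.42 ± 0.28, adjusted p = 0.0843). Notch2 (0.93 ± 0.26, adjusted p = 0.182) and Spi1, which encodes PU.1 (0.69 ± 0.27, adjusted p = 0.335), were chosen in the same way and also lay above on both arrays. So did Irf4 (0.70 ± 0.19, adjusted p = 0.175), chosen likewise. Irf4 passed the filter on low signal only through the pre-CD8 DC arrays, so it had to differ. It was among the 14 genes of the list that lay wholly above. The other 34 genes of the list held no call and a median of 0.225, with 22 positive differences.

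**Figure D4:**
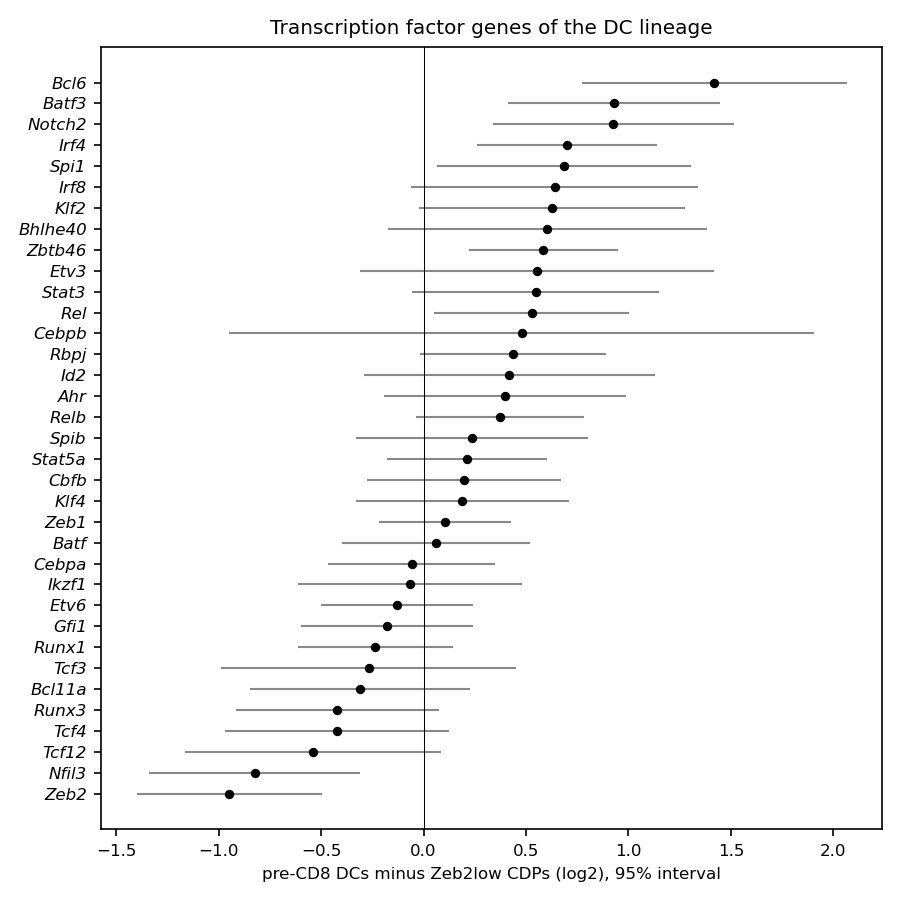
Log2 differences of the 35 measured transcription factor genes, pre-CD8 DCs minus Zeb2low CDPs, with 95% intervals from the fit that are not adjusted for the number of genes. Bcl6 and Batf3 lie highest and Zeb2 and Nfil3 lowest, and none of the 35 passed the test after adjustment.

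Called genes of contact with T cells and of migration included increases and decreases. Among 18 genes of DC maturation, costimulation and migration 2 were called higher and 1 lower, and 14 differences were positive. The arrays lay wholly above for 9 and wholly below for 4, beside 12.4% and 15.4% of all genes. Over all genes 0.337% were called higher and 0.217% lower, the shares to set beside the counts of called genes in this and the later lists. Cd86, a ligand of CD28, stood at 7.005 and 7.24 against 5.97, 5.24 and 5.59, an increase of 1.53 ± 0.25 (adjusted p = 0.0393). Cd83, which keeps class II molecules at the surface, stood at 6.81 and 6.22 against 4.22, 4.75 and 4.99, an increase of 1.86 ± 0.29 (adjusted p = 0.0338). Il12a, which encodes the p35 chain of interleukin 12, fell from 6.80, 6.97 and 7.54 to 4.57 and 5.54 (-2.06 ± 0.30, adjusted p = 0.0278). The Zeb2hi mean of Il12a was 7.79, near the Zeb2low arrays. Cxcr3, a receptor for interferon-induced chemokines, was the only one of 15 chemokine receptor genes called, with 8.22 and 8.07 against 6.17, 6.18 and 6.03 (2.02 ± 0.15, adjusted p = 0.00134). Ccr7, which guides mature DCs to lymph nodes, was at 5.42 and 5.61 against 5.95, 6.51 and 5.94 and was not called (-0.61 ± 0.20, adjusted p = 0.245). S1pr3, a sphingosine phosphate receptor, was at 3.94 and 5.31 against 7.003, 6.28 and 7.12 (-2.18 ± 0.38, adjusted p = 0.0552). Itgax, which encodes the DC integrin CD11c, was at 7.88 and 7.90 against 6.89, 6.95 and 6.995 (0.94 ± 0.16, adjusted p = 0.05004). The last 3 genes were chosen after their values were seen.

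Klrb1b, a lectin-like receptor of natural killer cells, was the only one of 22 C-type lectin and Siglec genes called, at 6.47 and 6.55 against 5.08, 4.93 and 4.90 (1.54 ± 0.15, adjusted p = 0.00504). Cd96, an adhesion receptor for the nectin-like molecule CD155, was the only one of 23 integrin and adhesion genes called. It stood at 5.19 and 4.36 against 6.58, 6.13 and 6.78 and fell by 1.73 on the log2 scale (adjusted p = 0.0379), and its Zeb2hi mean of 5.00 was close to the pre-CD8 DC arrays. Cxcr3 and Klrb1b kept their calls without any 1 array. Cd86 lost it without every array but Zeb2low array 1 (0.0671 to 0.169), Cd83 without every array but pre-CD8 DC array 2 (0.0526 to 0.206), Il12a without every array but pre-CD8 DC array 2 and Zeb2low array 1 (0.0563 to 0.147), and Cd96 without every array but pre-CD8 DC array 1 (0.0504 to 0.143). The maturation list had no call without both arrays numbered 1 (limma), and a median of 0.25 against 0.42. Under the same setting the median of the chemokine receptors turned from 0.21 to -0.33 and that of the C-type lectins and Siglecs from 0.30 to -0.25. The median of the integrin and adhesion genes went from 0.38 to 0.19. Among the chemokine receptor genes Ccr3 and S1pr1 passed the filter on low signal only through the pre-CD8 DC arrays. The other 13 had a median of 0.075 with all arrays.

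The gene lists do not hold the next 4 called increases. Slamf8, a receptor of the SLAM family that is described after its values were seen, stood at 6.78 and 6.40 against 4.60, 4.41 and 4.67, an increase of 2.03 ± 0.19 (adjusted p = 0.00296). Slfn5, a Schlafen gene that responds to interferon, stood at 7.01 and 6.92 against 4.08, 5.07 and 4.57 (2.39 ± 0.26, adjusted p = 0.00725). The pre-CD8 DC arrays agreed closely for Slfn5, and the spread was on the side of Zeb2low CDPs. Rasgrp3, an activator of Ras, stood at 6.43 and 5.14 against 3.58, 3.34 and 3.38 (2.35 ± 0.32, adjusted p = 0.0219). Rtl8c, a gene derived from a retrotransposon, stood at 10.08 and 8.77 against 6.46, 6.89 and 6.79 (2.71 ± 0.33, adjusted p = 0.014). It was one of 4 increases whose Zeb2hi mean was not below the Zeb2low mean, with Gpr132, Pdia5 and Snord35b, whereas the other 41 had their lowest mean in Zeb2hi CDPs. Slamf8 kept its call without any 1 array. Slfn5 lost it without pre-CD8 DC array 1 (0.0602), Rtl8c without Zeb2low array 3 (0.0702), and Rasgrp3 without Zeb2low array 2 (0.0612) or 3 (0.104) and Zeb2hi array 2 (0.0591) or 3 (0.0526).

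The promoters of Slfn5 and Slamf8 are shown because both hold letters of the kind that interferon regulatory factors read, GAAA, any 2 bases and GAAA again on either strand, which the capitals mark (GRCm38.p6).
Slfn5, chr11:82951852-82952151, plus strand: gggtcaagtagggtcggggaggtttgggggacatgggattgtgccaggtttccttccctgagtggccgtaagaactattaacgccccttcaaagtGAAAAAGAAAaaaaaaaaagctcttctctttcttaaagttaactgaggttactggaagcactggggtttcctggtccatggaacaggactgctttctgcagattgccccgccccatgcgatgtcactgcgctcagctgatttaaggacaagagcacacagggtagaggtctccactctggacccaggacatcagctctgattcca
Slamf8, chr1:172590519-172590818, minus strand: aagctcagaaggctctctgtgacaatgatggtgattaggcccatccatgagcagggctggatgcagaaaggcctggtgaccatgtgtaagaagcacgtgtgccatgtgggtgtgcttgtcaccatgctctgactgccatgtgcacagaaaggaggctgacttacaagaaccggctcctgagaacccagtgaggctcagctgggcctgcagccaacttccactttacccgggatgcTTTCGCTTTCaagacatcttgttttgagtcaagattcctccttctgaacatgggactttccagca
These letters were in 6 of the 33 called increases with a promoter (18.2%: Ece1, Gpr141b, Phf11a, Sgk1, Slamf8 and Slfn5), in 3.56% of the tested genes with a promoter and in 3.99% of all promoters of the table. They were also in 1 of the 19 called decreases with a promoter (5.26%: Chek1). The letters were chosen with results of these data known, and the 2 promoters were picked because they hold them. The shares are thus a description. In Slfn5 the marked letters run on into a row of A bases, and a match does not show a site in use. Phf11a and Phf11c, paralogs that lie close together on chromosome 14, were both called, and their probe sets may share signal.

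Most genes of DNA replication had lower signals in pre-CD8 DCs, but only 1 passed the test. These genes unwind and copy DNA in S phase and are switched on by E2F factors. Of 32 measured genes 1, Pole, was called lower and none higher, 28 differences were negative, and the median was -0.66 against -0.03 for all genes. The arrays of pre-CD8 DCs lay wholly below for 22 of the 32, beside 15.4% of all genes. The mean log2 signal of the list was 7.37 on each pre-CD8 DC array and 7.88, 7.95 and 8.02 on the Zeb2low arrays, and 8.32 to 8.62 on the Zeb2hi arrays. Pole, the catalytic subunit of DNA polymerase epsilon, stood at 6.88 and 7.15 against 7.93, 8.09 and 8.17 (-1.05 ± 0.16, adjusted p = 0.0324). Another 3 called genes act in the same phase without being on the list, of which Pole2 and Chek1 were chosen after their values were seen. Pole2, the second subunit of that polymerase, stood at 5.83 and 5.99 against 6.97, 7.14 and 6.91 (-1.10 ± 0.17, adjusted p = 0.0303). Chek1, a checkpoint kinase that guards replication, stood at 5.88 and 5.87 against 7.12, 7.08 and 7.32 (-1.30 ± 0.15, adjusted p = 0.0104). Dctd, which makes the precursor of thymidine nucleotides, fell by 1.42 on the log2 scale (adjusted p = 0.0391). No pre-CD8 DC array reached the Zeb2low range for any of these genes.

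The promoters of Chek1 and Pole2 are shown because both hold letters of the E2F type, TTCCCGCC or TTTGGCGC, here on the opposite strand and marked by capitals (GRCm38.p6).
Chek1, chr9:36726609-36726908, minus strand: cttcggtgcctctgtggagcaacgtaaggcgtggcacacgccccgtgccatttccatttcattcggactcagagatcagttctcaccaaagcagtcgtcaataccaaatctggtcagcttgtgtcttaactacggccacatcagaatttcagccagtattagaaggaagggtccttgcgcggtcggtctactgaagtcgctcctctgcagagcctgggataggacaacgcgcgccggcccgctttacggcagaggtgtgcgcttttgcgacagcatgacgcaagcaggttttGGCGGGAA
Pole2, chr12:69228141-69228440, minus strand: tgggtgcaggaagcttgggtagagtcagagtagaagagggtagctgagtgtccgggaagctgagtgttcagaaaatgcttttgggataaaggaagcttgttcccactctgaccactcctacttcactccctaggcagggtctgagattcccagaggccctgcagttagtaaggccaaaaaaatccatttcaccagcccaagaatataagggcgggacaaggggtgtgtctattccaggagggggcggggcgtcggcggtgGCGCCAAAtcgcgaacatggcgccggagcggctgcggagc
Either set of letters was in 11 of the 27 replication genes with a promoter (40.7%), in 5 of the 19 called decreases with one (26.3%: Cenph, Chek1, Egfl7, Pole2 and Syce2), in 5.33% of the tested genes with a promoter and in 3.07% of all promoters of the table. None of the 33 called increases with a promoter held them. The letters were chosen after the sequences were seen, and a match does not show a site in use.

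Among replication genes that were not called, Prim1, the primase subunit, differed by -1.28 ± 0.29 (adjusted p = 0.111), Rfc4, a clamp loader subunit, by -1.06 ± 0.18 (adjusted p = 0.0517) and Pola1, of DNA polymerase alpha, by -1.11 ± 0.24 (adjusted p = 0.102). Of the helicase genes, Mcm4 differed by -0.79 ± 0.19 (adjusted p = 0.12), Mcm6 by -0.72 ± 0.20 (adjusted p = 0.179) and Mcm2 by -0.71 ± 0.25 (adjusted p = 0.273). Pcna, the sliding clamp, was among the brightest, with 10.73 and 11.29 against 11.54, 11.49 and 11.33, and differed by -0.44 ± 0.19 (adjusted p = 0.364). All 7 lay below the Zeb2low arrays on both pre-CD8 DC arrays, and they are named after their values were seen. Without both arrays numbered 1 the list had a median of -0.68 with 31 of 32 differences negative and no call (limma), beside a median of -0.66 with all arrays. Pole lost its call without every array but pre-CD8 DC array 2 and Zeb2low array 1 (0.0532 to 0.191). Chek1 lost it without pre-CD8 DC array 1 (0.0672) or Zeb2low array 3 (0.059), Pole2 without every array but pre-CD8 DC array 2 and Zeb2hi array 1 (0.0576 to 0.181), and Dctd without every array but pre-CD8 DC array 2 (0.0602 to 0.206).

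The genes of mitosis had differences on both sides of 0. Of 29 measured genes none was called (limma), and the median was 0.11, with 19 positive differences. At an unadjusted p under 0.05, 1 was higher and none lower, beside 6.23% and 6.96% of all genes. The median turned to -0.03 after quantile normalization and to -0.11 without pre-CD8 DC array 2. It was 0.25 without pre-CD8 DC array 1, with 26 positive differences, and 0.31 without both arrays numbered 1, with 28, and it was 0.02 without Zeb2low array 2. The list's mean log2 signal was 8.59 and 8.99 in pre-CD8 DCs and 8.83, 8.61 and 8.75 in Zeb2low CDPs, so the groups overlapped. Ccnb2, a cyclin of mitosis, differed by 0.51 ± 0.14 (adjusted p = 0.169) and Plk1, a mitotic kinase, by 0.43 ± 0.25 (adjusted p = 0.49). The difference between the lists was not tested.

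Ccnd2 was the only one of 28 G1 cyclin, kinase and inhibitor genes called. Its partner kinase gene Cdk6 was at 7.70 and 7.67 against 8.42, 8.82 and 8.88 (-1.02 ± 0.19, adjusted p = 0.0618), and the Zeb2hi mean was 10.42. The cyclin E genes Ccne1 (-0.82 ± 0.24, adjusted p = 0.202) and Ccne2 (-1.03 ± 0.30, adjusted p = 0.194) were below on both arrays, whereas Ccnd1, the gene of cyclin D1, was above on both (0.43 ± 0.20, adjusted p = 0.395). Bcl2, which protects cells from death and is high in early progenitors, was the only one of 16 genes of its family called. It stood at 7.32 and 7.93 against 9.26, 9.04 and 9.14 (-1.52 ± 0.22, adjusted p = 0.0266), with a Zeb2hi mean of 9.84. Mcl1, another protector, was at 10.27 and 9.83 against 9.42, 9.80 and 9.53 and was not called (0.47 ± 0.22, adjusted p = 0.407). Bcl2 lost its call without every array but pre-CD8 DC array 2 and Zeb2hi array 1 (0.0597 to 0.147). Without both arrays numbered 1 the medians of the G1 and Bcl2 family lists were -0.09 and -0.02, beside -0.08 and 0.03 with all arrays. Genes other than Ccnd2 and Bcl2 in this group were chosen after their values were seen.

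Most genes of stem cells and early progenitors had lower signals, and again 1 passed the test. Of 31 measured genes 1, Egfl7, was called lower and none higher, 23 differences were negative, and the median was -0.42. At an unadjusted p under 0.05 there were 13 lower and 2 higher, beside 6.96% and 6.23% of all genes. Cd93, a surface lectin of early progenitors that is not on the list, gave the clearest loss, with 7.38 and 7.40 against 9.10, 9.34 and 9.63. Its signal was 3.91-fold lower (-1.97 ± 0.18, adjusted p = 0.00296), and the Zeb2hi mean was higher still, at 10.45. Egfl7, a secreted protein of endothelium and stem cells, stood at 5.08 and 5.17 against 6.12, 6.52 and 6.41 (-1.23 ± 0.18, adjusted p = 0.0266).

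The largest differences of the list were not called, and their Zeb2low arrays were spread out. Cd34, the sialomucin of haematopoietic progenitors, was at 6.93 and 6.38 against 7.75, 9.20 and 9.45 (-2.14 ± 0.49, adjusted p = 0.112). Sox4, a factor of early lymphoid and myeloid progenitors, was at 5.12 and 5.33 against 6.43, 7.73 and 7.95 (-2.14 ± 0.45, adjusted p = 0.0899). In both cases Zeb2low array 1 was the lowest of its group and still above the pre-CD8 DC arrays. Myb, a factor that keeps progenitors dividing, was at 8.19 and 8.52 against 9.06, 9.48 and 9.68 (-1.05 ± 0.21, adjusted p = 0.0876), and Hoxa9 at 5.67 on both arrays against 6.46, 6.65 and 6.48 (-0.86 ± 0.19, adjusted p = 0.105). The receptor genes Kit and Flt3 did not go down with them. Kit was at 8.72 and 9.07 against 8.13, 8.29 and 8.46 (interval 0.004 to 1.20, adjusted p = 0.378), and Flt3 at 9.57 and 9.61 against 9.07, 9.43 and 9.62 (interval -0.20 to 0.63, adjusted p = 0.651). Genes in this paragraph were named after their values were seen. Without both arrays numbered 1 the list had 2 calls and a median of -0.47, and without pre-CD8 DC array 1 alone it had no call (limma) and a median of -0.20. Cd93 kept its call without any 1 array, and Egfl7 lost it without every array but Zeb2hi array 1 and Zeb2low array 1 (0.0513 to 0.169).

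The 3 largest decreases were in genes not usually linked to DCs. Gria3, a subunit of neuronal glutamate receptors, stood at 6.53 and 6.43 against 9.93, 8.73 and 9.26 (-2.83 ± 0.33, adjusted p = 0.0104). I730030J21Rik, an uncharacterised transcript, stood at 7.25 and 7.82 against 10.39, 10.10 and 10.20 (-2.69 ± 0.29, adjusted p = 0.00713). Upk1b, a tetraspanin of the bladder lining, stood at 4.03 and 3.65 against 6.80, 5.85 and 6.61 (-2.58 ± 0.28, adjusted p = 0.00731). All 3 were as high in Zeb2hi as in Zeb2low CDPs or nearly so, with Zeb2hi means of 10.32, 9.48 and 6.11, so that the pre-CD8 DCs stood apart from both progenitor fractions. Upk1b and the called genes Ociad2 and Gm4759 were below the 40th percentile of both pre-CD8 DC arrays. Gria3 lost its call without pre-CD8 DC array 1 (0.0731) or Zeb2low array 3 (0.059), and I730030J21Rik without pre-CD8 DC array 1 (0.0566).

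Genes of other lineages gave few calls. In the pDC list 1 of 20 genes was called in each direction. Cox6a2, a respiratory chain subunit that marks pDCs, stood at 7.18 and 7.16 against 8.73, 9.11 and 9.59 (-1.98 ± 0.27, adjusted p = 0.0219). Pdia5, a protein-folding enzyme of the endoplasmic reticulum, stood at 8.02 and 7.50 against 6.40, 6.39 and 6.30 (1.40 ± 0.18, adjusted p = 0.016). Dntt, the polymerase of lymphoid progenitors, was at 5.68 and 5.98 against 6.95, 7.88 and 8.33 (-1.89 ± 0.34, adjusted p = 0.0618), and Siglech, a surface marker of pDCs, at 6.77 and 6.07 against 6.86, 7.35 and 6.98 (-0.64 ± 0.29, adjusted p = 0.381). Dntt and Siglech were chosen after their values were seen. The 2 brightest genes of the list, Bst2 (0.41 ± 0.32, adjusted p = 0.62) and Cybb (0.99 ± 0.65, adjusted p = 0.548), differed in the positive direction and overlapped between the groups. The summed signal of the pDC list ranged from 3356 to 4102 in pre-CD8 DCs and from 2796 to 4378 in Zeb2low CDPs. Of 16 cDC2 genes none was called (limma), with 2 higher and 4 lower at an unadjusted p under 0.05. The shares of all genes were 6.23% higher and 6.96% lower. The cDC2 genes of smallest p, Clec4a1 (1.41 ± 0.32, adjusted p = 0.107) and Cd209a (0.73 ± 0.16, adjusted p = 0.1055), lay above all Zeb2low arrays on both pre-CD8 DC arrays. The arrays lay wholly above for 3 genes of the list and wholly below for 5, beside 12.4% and 15.4% of all genes. Sirpa, the receptor that marks cDC2s, was chosen after its value was seen. It overlapped between the groups, at 9.53 and 7.74 against 8.71, 9.24 and 8.61. Tfrc, the transferrin receptor of dividing cells and red cell precursors, was the only one of 11 erythroid and megakaryocyte genes called (-1.06 ± 0.18, adjusted p = 0.0403). The summed signal of that list ranged from 638.9 to 655.3 in pre-CD8 DCs and from 600.9 to 1548 in Zeb2low CDPs. Car1, with Tfrc 1 of its 2 brightest genes, was at 7.15 and 7.33 against 4.63, 4.98 and 9.49, so Zeb2low array 3 stood apart. Without both arrays numbered 1 the pDC list had 1 decrease and no increase called (limma) and a median of -0.35, beside -0.34 with all arrays. The median of the cDC2 list turned from 0.17 to -0.38, and that of the erythroid and megakaryocyte list was -0.10, beside -0.11.

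None of the genes of granule proteases and early myeloid cells (18 measured), monocytes and macrophages (20), mast cells, basophils and eosinophils (11), B cells (18), or T, NK and innate lymphoid cells (17) was called. At an unadjusted p under 0.05 they held 2, 2, 1, 0 and 0 higher and 1, 3, 0, 3 and 3 lower genes, where the shares of all genes were 6.23% higher and 6.96% lower. Their medians were 0.48, 0.21, -0.05, -0.09 and -0.01, and without both arrays numbered 1 they were -0.25, -0.57, -0.20, 0.02 and -0.24. Their summed signals were 8565 to 16380 in pre-CD8 DCs against 4456 to 11060 in Zeb2low CDPs for the granule list, 7440 to 14640 against 7305 to 10330 for monocytes and macrophages, 728.7 to 3226 against 575.4 to 1642 for mast cells, 884.1 to 989.5 against 973.8 to 1256 for B cells and 1443 to 1581 against 1484 to 1943 for T and NK cells. All 5 ranges overlapped between the groups. Ccr3, the 1 higher gene of the mast cell, basophil and eosinophil list, passed the filter on low signal only through the pre-CD8 DC arrays. The other 10 genes of that list had a median of -0.05. Cox6a2 lost its call without every array but Zeb2hi arrays 1 and 3 and Zeb2low array 1 (0.0513 to 0.135), Pdia5 without pre-CD8 DC array 1 (0.0831), Zeb2low array 2 (0.06) or 3 (0.0848) and Zeb2hi array 2 (0.052), and Tfrc without each of the 8 arrays in turn (0.0555 to 0.239). In the plot of differences by gene list the MHC class II and cDC1 lists lie furthest to the right and the replication and stem and progenitor lists furthest to the left.

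**Figure D5:**
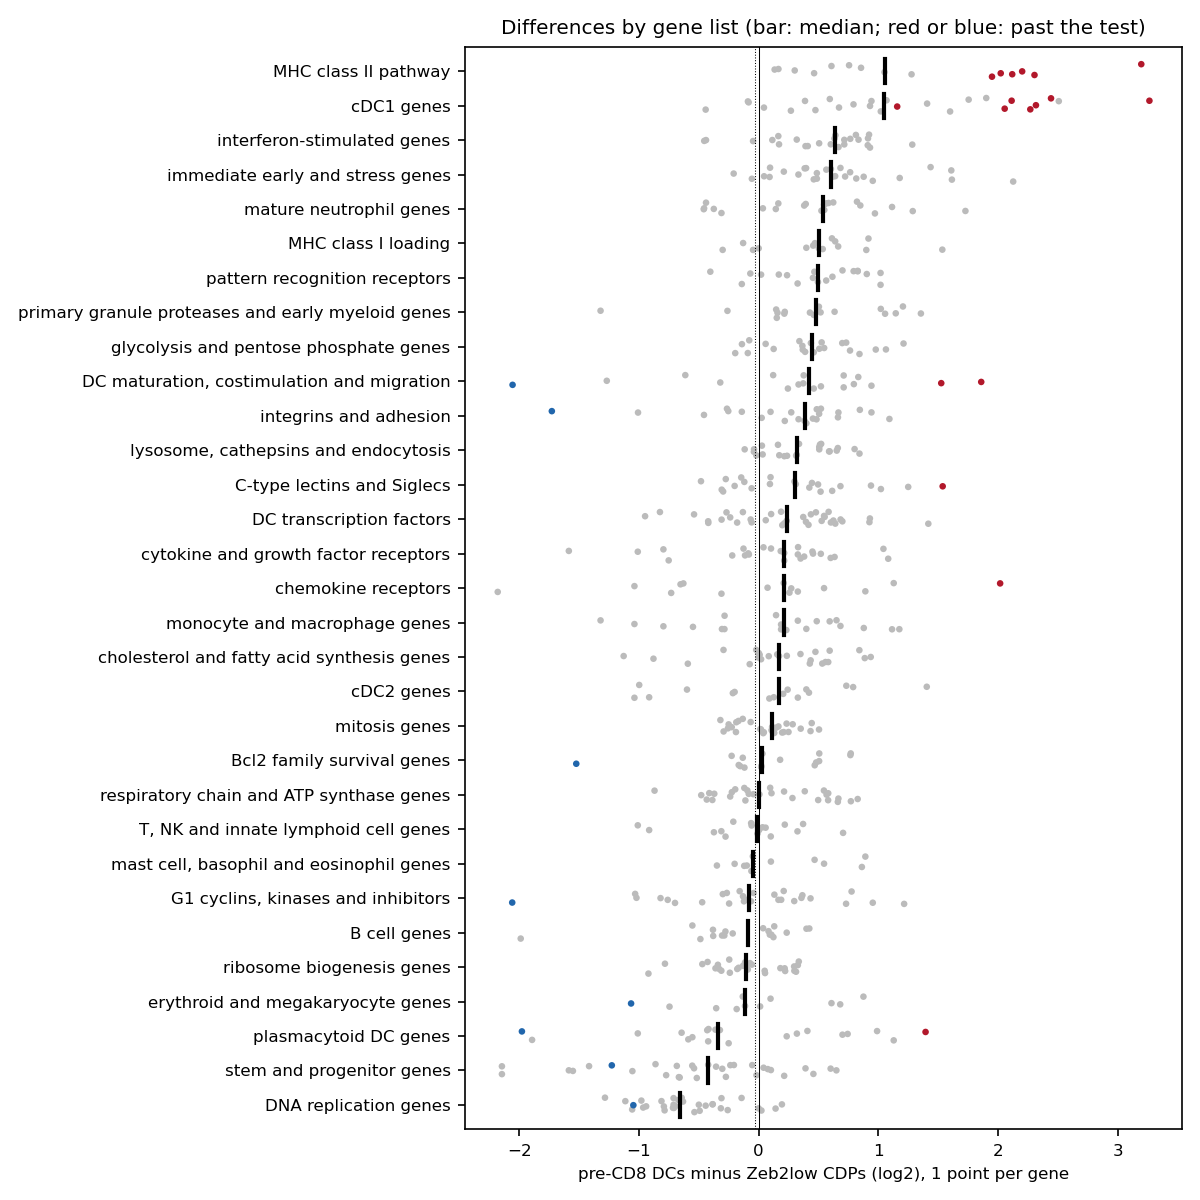
Log2 difference of each measured gene, pre-CD8 DCs minus Zeb2low CDPs, for 31 gene lists ordered by their median (black bar), with called genes in red (higher) or blue (lower) and a dotted line at the median of all genes. The medians run from 1.05 for the MHC class II and cDC1 lists to -0.66 for DNA replication, and 13 of the 31 kept their sign under every setting tried.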

How the data were processed

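The authors deposited 1 table of linear probe set intensity values, which the submitters' processing notes credit to RMA and Affymetrix Expression Console, with versions not given in the sources used here. It holds 28853 probe sets on 8 arrays. The platform annotation names 1 gene for 21789 of them, several for 1621 and none for 5443, and only the first kind was used (21698 matched the RefSeq gene table by gene ID, and 0 symbols needed a change). For the genome build behind the arrays the sources used here give no name.

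Intensities were put on the log2 scale. Probe sets above the 40th percentile of the array on at least 2 arrays were kept, and each gene was taken as its probe set with the highest mean. Group means were compared with limma 3.58.1 in R 4.3.3 (lmFit and eBayes, two-sided) in a fit over all 8 arrays with 5 residual degrees of freedom, which carries the spread of the Zeb2hi arrays into the comparison. P-values were adjusted by Benjamini-Hochberg over 13356 genes, and a gene is called at an adjusted p under 0.05. Values after ± are standard errors, n is 2 pre-CD8 DC and 3 Zeb2low arrays throughout, and values given as "A and B against C, D and E" are log2 signals of pre-CD8 DC arrays 1 and 2 and Zeb2low arrays 1, 2 and 3. The levels of different probe sets are not comparable, and the number of arrays limits the precision, with a median standard error of 0.206.

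On simulated data drawn for this comparison and its 13356 genes, 50 of 100 genes changed by 1 and 87 of 100 changed by 2 on the log2 scale were recovered, with 8 false calls. The simulated noise was independent between genes, whereas on the real arrays genes such as those of neutrophils shifted together. The simulated counts therefore need not hold for the real arrays. The markers, the 31 gene lists (640 of 755 genes measured, 26 called) and the tests were chosen with earlier results of these data known. Named genes were the 4 markers, 7 transcription factors, the 15 largest called differences in each direction, up to 4 called members of each list in each direction (where none passed in either, the 2 of smallest p) and the 2 brightest genes of lists of other cell types, and not all are printed. Other genes are said to have been chosen after their values were seen, also where only a name is given. A further list is not reported here. Alternatives were other filters, normalizations, probe set rules and fits, and arrays left out. Promoters came from a RefSeq table of assembly GRCm38.p6, which held 52 of the 74 called genes.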

Additional observations from a re-analysis of the deposited data

How the results depend on the processing

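The 45 increases and 29 decreases became 13 and 3 with only the 5 arrays of the 2 groups, and 24 and 20 without both arrays numbered 1 (18 and 7 of them among the first). With 1 array left out at a time they ranged from 17 (without Zeb2low array 3) to 88 (without pre-CD8 DC array 2) increases and from 4 to 59 decreases, without the same arrays. A lone pre-CD8 DC array was then assumed to vary like the other groups. Under 6 other settings (both filters, quantile normalization, array weights, a mean-variance trend, and the mean of a gene's probe sets) the counts were within 1.5 times, and after median centring 60 and 23. Leaving out Zeb2hi arrays 1, 2 and 3 gave 34, 18 and 28 increases and 17, 7 and 9 decreases, pre-CD8 DC array 1 19 and 6, Zeb2low array 1 31 and 24, and Zeb2low array 2 23 and 9. Fewer arrays and residual degrees of freedom entered these fits, and no other cause was tested. None of the 74 called genes changed direction under the 18 settings, though only 66 of them had a value under the stricter filter, and 11 kept their call in every setting that gave them a value.

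With the replicate block over all arrays 10 increases and 5 decreases were called, 9 and 5 of them among the first. The labels do not say whether the numbers pair the samples. The deviations from the group means had r = -0.401 for pre-CD8 DC array 1 with Zeb2low array 1 and 0.587 with Zeb2low array 2. With only 2 pre-CD8 DC arrays the deviations of array 2 mirror those of array 1, so these values cannot settle the pairing.

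Signs turned only for genes that were not called. With 1 array or both arrays numbered 1 left out, the differences ranged from -0.61 to 2.281 for Lyz2, from -0.096 to 0.117 for S100a8, from -0.071 to 0.297 for Rfxank, from -0.038 to 0.642 for Rfx5, from -1.182 to 0.681 for Sirpa and from -0.009 to 0.137 for Cd24a. Cd24a was -0.052 after quantile normalization and -0.045 with the replicate block, and S100a8 was -0.043 with that block. The cause was not tested.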

Other observations

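Several lists not described above leaned to one side without a called gene (limma). Over all genes 6.23% were higher and 6.96% lower at an unadjusted p under 0.05, the shares to set beside the counts below. Of 15 genes of MHC class I loading 12 were positive with a median of 0.50, and 7 were higher and none lower at an unadjusted p under 0.05. The peptide transporter gene Tap1 was at 8.997 and 8.73 against 7.65, 8.02 and 8.17 (0.92 ± 0.20, adjusted p = 0.105), and the immunoproteasome gene Psmb8 at 9.94 and 9.32 against 8.84, 8.65 and 8.69 (0.90 ± 0.21, adjusted p = 0.115). The median of that list did not change sign under any setting tried and was 0.36 without both arrays numbered 1.

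Interferon-stimulated genes had a median of 0.64 with 21 of 24 positive and none called, and 8 were higher and none lower at an unadjusted p under 0.05. Ifit1 and Mx2 would not have passed the filter on low signal without the pre-CD8 DC arrays, so their differences partly follow from the filter. The other 22 genes held no call and a median of 0.64, with 19 positive differences. Mx1, an antiviral GTPase, was at 6.76 and 6.81 against 5.83, 5.95 and 6.08 (0.83 ± 0.15, adjusted p = 0.0618), and Stat2, which carries the interferon signal to the nucleus, at 8.25 and 7.84 against 7.21, 6.93 and 7.25 (0.91 ± 0.18, adjusted p = 0.0843). The list's median was 0.05 without pre-CD8 DC array 1 and -0.16 without both arrays numbered 1, and its mean log2 signal was 7.74 and 6.69 in pre-CD8 DCs against 6.32, 7.09 and 6.68 in Zeb2low CDPs, and both it and the neutrophil list were highest on pre-CD8 DC array 1, next highest on Zeb2low array 2 and lowest on Zeb2low array 1. The part of neutrophil RNA was not tested. Immediate early and stress genes had a median of 0.60 with 25 of 27 positive, none called, and 3 higher and none lower at an unadjusted p under 0.05. The median was 0.25 without Zeb2low array 1 and 0.18 with 19 positive without both arrays numbered 1. Atf3, a stress factor, was at 9.51 and 10.18 against 6.55, 8.06 and 8.54 (2.13 ± 0.70, adjusted p = 0.248), and Zeb2low array 1 was the lowest array for it. Of 25 genes of cholesterol and fatty acid synthesis none was called, with 6 higher and 3 lower at an unadjusted p under 0.05, and the median of 0.17 was 0.03 without both arrays numbered 1. The sterol sensor Insig1 was at 8.69 and 8.43 against 7.61, 7.59 and 7.82 (0.89 ± 0.17, adjusted p = 0.0694), and the desaturase Fads2 at 6.61 and 6.88 against 7.48, 8.13 and 8.01 (-1.13 ± 0.25, adjusted p = 0.1).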
